A study of Mus musculus with 4 samples.

Results

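The comparison described here sets the brain of a Nav1.8CreROSA26DTA mouse injected with phosphate-buffered saline (PBS) beside the brain of a wild-type mouse injected with PBS. It uses 2 of the 4 arrays of the study, chosen by their labels for genotype and agent. Each array was hybridised with total RNA from whole brain, labelled with Cy3 on an Agilent single-colour expression array. In Nav1.8CreROSA26DTA mice the promoter of Scn10a, which encodes the Nav1.8 sodium channel, drives Cre recombinase, and Cre switches on diphtheria toxin fragment A from the ROSA26 locus. The other 2 arrays hold the same genotypes after lipopolysaccharide (LPS), given at 20 mg/kg into the peritoneum with brains taken 12 hours later. They serve below as the only second pair of these genotypes. The time between injection and sampling is not separately given for the PBS mice, and sex, age, strain background and perfusion are not given in the sources used here. The labels name the brain of a mouse, without stating whether RNA of several mice was pooled. With 1 array a group there is no replicate, so no difference below carries a test, and genotype and individual cannot be told apart.

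Nociceptors are the sensory neurons that detect harmful heat, pressure and chemicals, and their cell bodies lie in the dorsal root, trigeminal and vagal ganglia, outside the brain. Nav1.8 carries much of the sodium current of their action potentials, and the toxin, which stops protein synthesis, kills the cells of the Nav1.8 lineage. Their axons end in the spinal cord and brainstem, and they also release peptides such as calcitonin gene-related peptide and substance P into the skin and viscera, where these act on vessels and immune cells. The comparison asks which brain transcripts differ in the absence of these neurons without a bacterial stimulus. The labelled tissue is brain and not ganglion, so these arrays do not measure the ablation itself. Whether ganglion tissue was carried over with the brain was not tested.

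Levels are given as log2 of the processed signal relative to the 75th percentile of the same array, and a difference is the Nav1.8CreROSA26DTA level minus the wild-type level on that log2 scale. A gene counted as measured when its probe was well above background on both PBS arrays, which held for 16630 of 23462 named genes. The share of spots well above background was 69.5% in wild-type and 66.5% in Nav1.8CreROSA26DTA, and 0 spots were saturated. Over 294 probes printed as 10 spots the SD of the difference between spots had a median of 0.0333, and over 6146 genes with several probes the SD between probes had a median of 0.101. These are technical errors within an array and do not include the spread between animals. All 4 arrays lay on 1 slide, with the genotypes in different columns, so position on the slide and genotype cannot be told apart. The labelled tissue was checked against markers. Neuronal Rbfox3 and Snap25, astrocyte Gfap, oligodendrocyte Mbp and microglial P2ry12 were well above background on both arrays. Some markers of particular brain structures were not. Gabra6 and Cbln3 of cerebellar granule cells, Slc6a5 of glycinergic neurons, 5 of 6 Hox genes, and Ttr of the choroid plexus were well above background on neither PBS array. The 4 Y-linked genes of the sex-linked list were well above background on both arrays and Xist on neither.

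Most brain transcripts lay close together in the 2 brains, with 93.0% of measured genes within 1.5-fold and a median difference of 0.04. Above 0 were 57.3% of measured genes with PBS. With LPS 50.7% of genes measured on all 4 arrays were above 0. Counts of list members above 0 are to be read beside these shares. At least 2-fold apart were 270 genes (1.62% of those measured), of which 201 (1.21%) were higher and 69 (0.415%) lower in Nav1.8CreROSA26DTA. Among these genes measured on both arrays 22 were at least 4-fold higher against 1 lower (E530001F21Rik), and 8 at least 8-fold higher against 0 lower. Genes above background on 1 array only are given as bounds further on, with Cpsf4l at least 9.02-fold lower. The 8 were the calprotectin genes S100a9 and S100a8, the globin genes Hbb-b2, Hbb-b1 and Hbb-bt, the haem synthesis gene Alas2, the myeloid chitinase-like gene Chil3 and the anion exchanger gene Slc26a7. Among the 4158 dimmest genes the SD of the differences was 0.48 and 142 were higher, against an SD of 0.21 and 6 higher among the 4158 brightest. A background correction that compresses dim signals (normexp with an offset) left 52 genes higher and 21 lower. All 52 were among the 201. Of the 25 highest genes 19 stayed past 2-fold with it, the others being Ccdc153, Plbd1, Ear2, Baiap3, H2-Aa and Mpo, whereas of the 25 lowest 10 did.

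**Figure D1:**
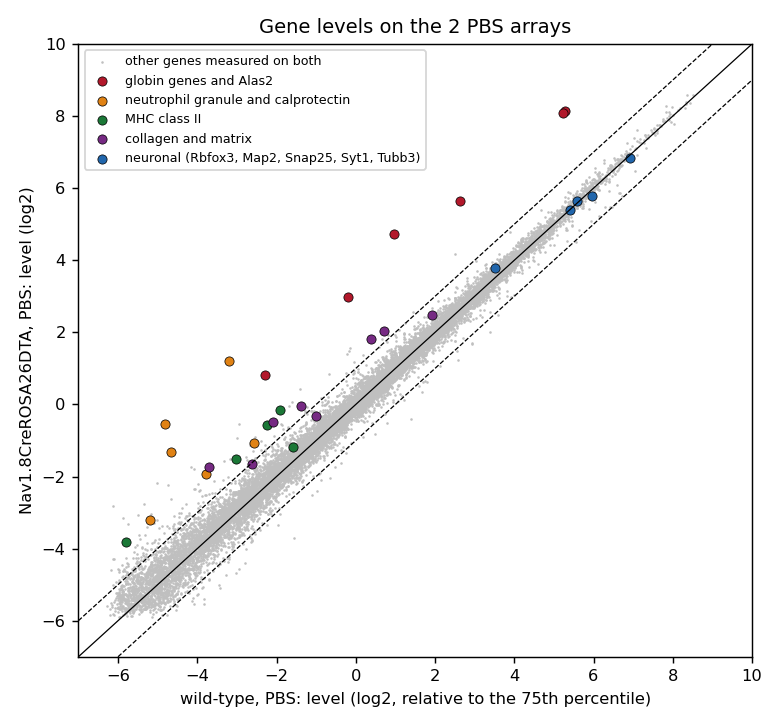
Level of each measured gene on the wild-type PBS array (horizontal) and the Nav1.8CreROSA26DTA PBS array (vertical), log2 relative to the 75th percentile of the array. Each point is 1 gene on 1 array a group, the solid line marks equal levels and the dashed lines mark 2-fold. The globin genes and Alas2 and the 6 coloured granule and calprotectin genes (S100a8, S100a9, Chil3, Camp, Lcn2 and Mpo) lie above the upper dashed line, at differences of up to 4.39, and the neuronal genes lie along the solid line. These 6 are the members of the neutrophil and monocyte list at least 2-fold higher, so their place above that line follows from the choice. The other 10 of its 16 measured members, all within 2-fold, are not coloured.

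Red cell transcripts formed the brightest of the higher genes. Hba-a1, an alpha-globin gene, had a level of 5.28 in wild-type and 8.14 in Nav1.8CreROSA26DTA, 7.26-fold higher, and its 2 probes differed by 2.86 and 2.90. Hba-a2 went from 5.23 to 8.09. The beta-globin genes were higher by 3.0 for Hbb-bt, 3.17 for Hbb-b1 and 3.77 for Hbb-b2. All 5 measured adult globin genes were therefore between 2.86 and 3.77 higher, although probes for globin genes share sequence with their paralogs, so which gene a value belongs to is uncertain. Alas2, the red cell enzyme for the first step of haem synthesis, had levels of -2.30 and 0.83, which is 8.73-fold. Slc4a1, the band 3 anion exchanger of the red cell membrane, was higher by 1.82, at levels of -5.09 and -3.27 near the lower end of the measured range. Isg20, an exonuclease gene that is also interferon-induced, was higher by 1.30, and under normexp both were under 2-fold. Thus 8 of 17 measured red cell genes were at least 2-fold higher and 0 lower, and all 17 were above 0. The other 9 lay between 0.02 for Rhd and 0.47 for Slc25a37, the mitochondrial iron importer. These include genes with wide brain expression such as Bpgm (0.33), Fech (0.16) and Car2 (0.12). Hbb-y, a further globin gene of the list, went the other way, well above background in wild-type and not in Nav1.8CreROSA26DTA. Genes of red cell precursors and the red cell membrane, among them Epb42, Rhag, Kel, Trim10 and Gata1, were not well above background on any of the 4 arrays. The summed signal of the red cell list relative to the 75th percentile was 138 in wild-type and 706 in Nav1.8CreROSA26DTA with PBS, against 258 and 391 with LPS. In the LPS pair the 5 globin genes were higher by 0.63 to 1.71 and Alas2 by 0.59, so the gap had the same direction there and was smaller. The wild-type PBS array had the lowest level of the 4 for each of these 6 genes. In bulk tissue, more red cells in the sample and more RNA per cell cannot be told apart, and the same holds for every cell type below.

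Granulocyte and monocyte transcripts showed the largest differences among genes well above background on both arrays. S100a9 and S100a8 encode the subunits of calprotectin, the main cytosolic protein of neutrophils. S100a9 had a level of -3.19 in wild-type and 1.2 in Nav1.8CreROSA26DTA, 20.9-fold higher, and S100a8 went from -4.82 to -0.53, 19.5-fold higher. Chil3 was 10.2-fold higher, with levels of -4.67 and -1.32. Next came the granule genes Mpo (myeloperoxidase, higher by 1.97), Lcn2 (lipocalin 2, which binds siderophores, by 1.86) and Camp (cathelicidin, by 1.51). These are 6 of 16 measured members of the list, with 0 lower. A further 5 members were well above background in Nav1.8CreROSA26DTA and not in wild-type. They were Ltf (lactoferrin), at least 12.5-fold higher, Retnlg (resistin-like gamma), at least 7.41-fold higher, the granule protein gene Ngp, Plac8 and the monocyte chemokine receptor gene Ccr2. Fpr1, a formyl peptide receptor gene, was well above background in wild-type and not in Nav1.8CreROSA26DTA. The other 10 measured members were within 2-fold, although 14 of all 16 were above 0. Elane and Prtn3, elastase-type granule proteases, had differences of 0.38 and 0.14, the neutrophil surface gene Ly6g had 0.10, and Csf3r, the receptor for granulocyte colony-stimulating factor, had -0.44. The list's median was 0.50. Its summed signal was 76.6 in wild-type and 63.3 in Nav1.8CreROSA26DTA, a sum in which Csf3r was the brightest member. Under normexp Mpo fell under 2-fold (0.82). In the LPS pair S100a9, S100a8 and Chil3 were higher by 0.62, 0.66 and 1.01, on levels that with LPS lay above those of wild-type PBS on both arrays. Outside the list, Plbd1, a phospholipase-like granule gene, was higher by 2.42, and the eosinophil-associated ribonuclease gene Ear2 by 2.13.

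Hp and Hmox1 handle haemoglobin after it leaves red cells, and they differed in opposite directions. Hp encodes haptoglobin, the plasma protein that binds free haemoglobin and that neutrophil granules also contain. It had levels of -5.87 and -3.14, higher by 2.72, and was higher by 1.92 in the LPS pair. Hmox1 encodes haem oxygenase 1, which breaks haem down. It had levels of 1.4 in wild-type and -0.40 in Nav1.8CreROSA26DTA, 3.47-fold lower, and was lower by 0.77 on the log2 scale with LPS. The difference of Hmox1 remained past 2-fold under normexp, at -1.64, and that of Hp just past it, at 1.04. Of 18 metallothionein and oxidative stress genes it was the only one 2-fold apart, and the list's median was 0.09. Mt1 and Mt2, the metal-binding metallothioneins, differed by 0.37 and 0.52, and the quinone reductase gene Nqo1 by 0.45.

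The promoters of the red cell genes are shown because GATA-1, the master factor of red cell differentiation, recognises GATAA, and these genes differed together. The 200 bases before the start site were read from RefSeq's GRCm38.p6 annotation and are written from 5′ to 3′ on the strand of the gene, with each match to GATAA on either strand in capitals.
Hba-a1, chr11:32283472-32283671 on the plus strand: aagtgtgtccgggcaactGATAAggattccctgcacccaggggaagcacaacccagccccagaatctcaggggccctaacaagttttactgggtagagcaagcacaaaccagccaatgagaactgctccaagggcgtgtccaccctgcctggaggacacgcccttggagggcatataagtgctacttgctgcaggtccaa
Alas2, chrX:150547217-150547416 on the plus strand: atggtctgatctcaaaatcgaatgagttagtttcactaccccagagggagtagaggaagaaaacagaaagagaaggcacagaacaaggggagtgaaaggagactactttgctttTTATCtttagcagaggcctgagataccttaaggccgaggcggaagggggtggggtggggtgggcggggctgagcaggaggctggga
The match lies 182 bases before the start site in Hba-a1 and 86 bases before it, on the opposite strand, in Alas2. Hba-a2 holds 1 as well, and the same window of Hbb-bt holds 0. Of 32851 mouse promoters of this length, 18.1% hold GATAA, so a match is a description of these windows and not a site of binding.

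Genes of antigen presentation by MHC class II formed another group. Class II molecules display peptides on dendritic cells, B cells and activated macrophages, including those at the borders of the brain. H2-Eb1 had levels of -1.91 in wild-type and -0.16 in Nav1.8CreROSA26DTA, higher by 1.75. H2-Ab1 had -2.24 and -0.58, higher by 1.66, and Cd74, the invariant chain that guides class II molecules, had -3.03 and -1.51, higher by 1.52. H2-Aa was higher by 1.98 from a level of -5.80, close to background. The 4 genes were the only members at least 2-fold apart among 27 measured interferon-gamma and antigen presentation genes, whose median was 0.27. As a subset chosen after the values were seen, the 5 measured class II genes had a median of 1.66, with H2-DMa, which helps load peptides, at 0.42. Ciita, the transactivator that class II genes need, was well above background in Nav1.8CreROSA26DTA and not in wild-type. Of 9 class I genes 0 were 2-fold apart (median 0.15), and of 11 guanylate-binding and immunity-related GTPase genes 0 (median 0.20). Under normexp H2-Eb1 and H2-Ab1 stayed past 2-fold at 1.38 and 1.32, and Cd74 (0.97) and H2-Aa (0.70) did not. With LPS the class II subset had a median of -0.04 and a range of -0.21 to 0.25, so the gap seen with PBS was not present in that pair.

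The Y box is a promoter element shared by class II genes, and its core CTGATTGG is in capitals in the 200 bases before the start sites of the class II genes in the promoter table that hold it (RefSeq, GRCm38.p6, 5′ to 3′ on the strand of the gene).
H2-Aa, chr17:34287824-34288023 on the minus strand: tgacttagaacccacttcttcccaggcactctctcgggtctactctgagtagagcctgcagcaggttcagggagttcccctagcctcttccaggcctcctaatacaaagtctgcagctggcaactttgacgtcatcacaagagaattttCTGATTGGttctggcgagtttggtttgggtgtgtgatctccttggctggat
H2-Eb1, chr17:34305667-34305866 on the plus strand: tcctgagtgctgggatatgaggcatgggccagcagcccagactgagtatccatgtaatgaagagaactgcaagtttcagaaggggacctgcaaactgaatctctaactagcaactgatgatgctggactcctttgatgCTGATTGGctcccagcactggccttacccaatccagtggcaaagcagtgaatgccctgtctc
The match lies 51 bases before the start site in H2-Aa and 62 bases before it in H2-Eb1. Over both strands, 3.54% of 32851 promoters of this length hold it. H2-DMa, whose difference was 0.42, has no match in its windows.

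Transcripts of the tissues that cover and line the brain were also higher. Of 26 fibroblast genes of the meninges and perivascular spaces, 5 were at least 2-fold higher, 0 lower, and 24 were above 0, with a median of 0.68. Of all measured genes 57.3% were above 0. The 5 were the fibrillar collagen genes Col3a1, Col1a1 and Col1a2, the collagen-binding proteoglycan gene Dcn (decorin) and its relative Fmod (fibromodulin). Col1a1 had levels of -2.08 and -0.49, higher by 1.59, with its 3 probes between 1.53 and 1.59. Col1a2 went from 0.39 to 1.8, and Col3a1 from -3.72 to -1.74. Dcn was higher by 1.32 and Fmod by 1.34. All 5 stayed past 2-fold under normexp. With LPS the fibroblast list had a median of -0.22 and 0 genes 2-fold apart. Border macrophages of the meninges and perivascular spaces had the highest median of the cell type lists, 0.93 over 11 genes, with 2 at least 2-fold higher. Those were Ms4a7 (1.14, although its second probe gave 0.52) and the carbonyl reductase gene Cbr2 (1.05, but -0.20 at its second probe). The scavenger receptor genes Mrc1 (0.98) and Cd163 (0.95) lay just below 2-fold. Under normexp 0 of the 11 were past 2-fold. With LPS the list's median was -0.13.

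Choroid plexus, the tissue that secretes cerebrospinal fluid, gave a mixed picture. Igf2, a growth factor gene that meninges and choroid plexus both express, had levels of -0.68 and 0.84, higher by 1.52, with 1.37 at its second probe, and stayed past 2-fold under normexp. The water channel gene Aqp1 was higher by 1.30 and the folate receptor gene Folr1 by 1.17, both from low levels and both under 2-fold with normexp. These are 3 of 16 measured choroid plexus genes, with 0 lower and a median of 0.53. The anion transporter gene Slc13a4 (0.97), Wfikkn2 (0.78), Msx1 (0.75), Igfbp2 (0.69), the potassium channel gene Kcnj13 (0.57) and Sostdc1 (0.50) came next. Then followed Kl (klotho, 0.42), Steap1 (0.41), Enpp2 (autotaxin, 0.38), the prolactin receptor gene Prlr (0.23) and Cox8b (0.04). Col8a1 (-0.21) and Clic6 (-0.48) were the members below 0. Otx2, Kcne2, Tmem72 and Calml4 were well above background in Nav1.8CreROSA26DTA only, whereas the defining transthyretin gene Ttr, with Slc4a5, Cldn2 and F5, was well above background on neither PBS array. In the LPS pair the median was -0.02.

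Ependymal cells line the ventricles and beat their cilia to move the fluid. Of 14 measured ependyma and cilia genes, Ccdc153 was at least 2-fold higher (2.44, from a level of -5.76, and 0.83 under normexp) and 0 were lower. The other genes ran from 0.57 for Tekt1, a ciliary filament gene, through Hydin (0.50), Dynlrb2 (0.50), Rarres2 (0.48), the master regulator Foxj1 (0.36), Cfap126 (0.34), Cfap54 (0.32), Mia (0.26), Pifo (0.23) and Fam183b (0.08). Meig1 (-0.02), Tppp3 (-0.04) and the dynein gene Dnah9 (-0.17) were below 0. Tmem212 was well above background in Nav1.8CreROSA26DTA only, and Spag17, Sntn and Ak7 on neither PBS array. The list's median was 0.33, and 0.40 with LPS, where all 14 genes were above 0. Dnah6, an axonemal dynein gene outside the list, was higher by 2.41 with PBS and 1.71 with LPS.

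**Figure D2:**
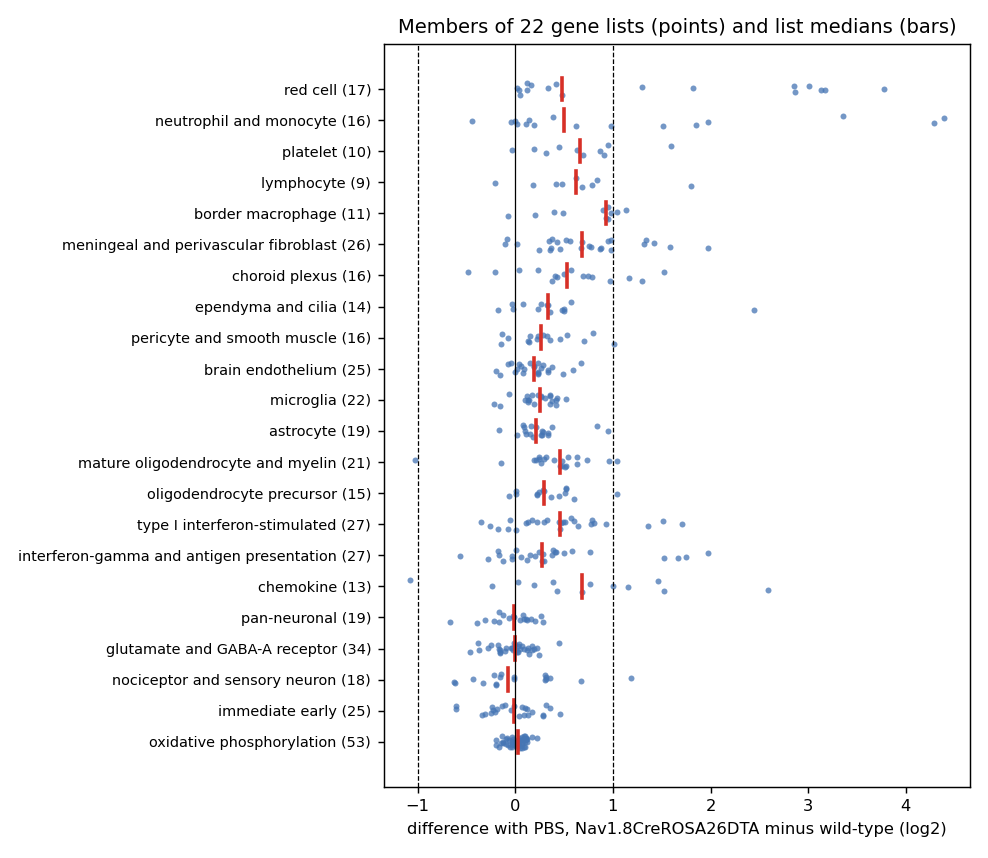
Difference with PBS (Nav1.8CreROSA26DTA minus wild-type, log2) for each measured member of 22 gene lists, with the number of measured members in brackets. Points are genes, red bars are list medians and dashed lines mark 2-fold. Lists of blood, border and lining cells have medians from 0.33 to 0.93, and the neuronal lists lie around 0. The mature oligodendrocyte and myelin list (0.46), the type I interferon list (0.46) and the chemokine list (0.68) also lie in that range.

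Cells of the vessel wall, microglia and astrocytes differed less. Of 25 endothelial genes 0 were 2-fold apart (median 0.19), and the highest was the von Willebrand factor gene Vwf at 0.67, followed by Itm2a (0.60) and the amino acid transporter gene Slc38a5 (0.49). Among 16 pericyte and smooth muscle genes the contractile gene Tagln was higher by 1.01 (0.92 under normexp), followed by Myh11 (0.80) and Myl9 (0.71), with a median of 0.26. Microglial genes had a median of 0.25 with 0 of 22 past 2-fold, the highest being Gpr34 at 0.52, and their LPS median was -0.15. Of 19 astrocyte genes 0 passed 2-fold (median 0.21). Gfap, the filament protein of astrocytes and a common marker of their reactivity, came closest, with levels of 0.98 and 1.93 and probes at 0.94 and 0.95. Agt, which encodes angiotensinogen, was higher by 0.84. Platelet genes had a median of 0.66 over 10 genes. The chemokine gene Ppbp was higher by 1.59 from a level near background, Pf4 by 0.95 and Gp9 by 0.91, and under normexp 0 of the 10 were past 2-fold. Of 9 measured lymphocyte genes, Cd79b, the B cell receptor subunit, was higher by 1.8, and by 1.51 with LPS, but by 0.72 under normexp. The list's median was 0.63, with the granzyme gene Gzma at 0.83 and Cd3d of T cells at 0.78.

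Most myelin genes were higher in both pairs, as were most red cell, ependyma and complement genes. With LPS, 12 of 14 red cell, 14 of 14 ependyma and 13 of 15 complement genes were above 0. With PBS, 19 of 21 mature oligodendrocyte and myelin genes were above 0 with a median of 0.46, and with LPS 20 of 20 were above 0 with a median of 0.88. Enpp6, a phosphodiesterase of newly formed oligodendrocytes, was higher by 1.04 with PBS (0.76 under normexp) and 1.60 with LPS. Mobp, a structural myelin protein gene, had levels of 3.03 and 3.99 with PBS and was higher by 0.96, and by 1.67 with LPS, although its second probe gave 0.53 with PBS. Gsn (0.74) and Tspan2 (0.63) followed. Ermn, the cytoskeletal gene of myelinating cells, went the other way, with levels of 5.55 and 4.52, lower by 1.03 on the log2 scale with PBS and higher by 0.30 with LPS. With LPS 8 of these genes were at least 2-fold higher (0.64% of all genes in that pair), and with PBS 1 was higher and 1 lower. Precursor genes had a median of 0.29 in both pairs, with Pdgfra at 0.52, Lhfpl3 at 0.52 and C1ql1 at 0.60 with PBS.

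Interferon-stimulated genes and chemokines were higher in part. Of 27 type I interferon-stimulated genes, 3 were at least 2-fold higher, 0 lower, and 22 were above 0, with a median of 0.46. They were Ifi27l2a (1.71), the antiviral radical SAM enzyme gene Rsad2 (1.51) and the oligoadenylate synthetase gene Oas2 (1.36), followed by Usp18, a brake on interferon signalling, at 0.93. All started from levels below -4 in wild-type, and under normexp 0 of the 27 were past 2-fold. With LPS the list's median was -0.20. Among 13 chemokine genes the monocyte attractant Ccl2 had levels of -5.35 and -2.77, 6.01-fold higher, and remained past 2-fold under normexp at 1.19. Ccl5 (1.52), Ccl4 (1.46) and Ccl12 (1.16) were also higher, and 0.76, 0.59 and 0.69 under normexp. Ccl7 was well above background in Nav1.8CreROSA26DTA only, and Ccl8 and Cxcl5 in wild-type only. Ccl21a, which guides cells that carry the receptor CCR7, was lower by 1.07 on the log2 scale with PBS, at levels of 2.55 and 1.48, and by 0.71 with LPS. Ch25h, an interferon-induced cholesterol hydroxylase gene, was higher by 1.26 and was the only one of 25 cytokine and NF-kB target genes past 2-fold (0.72 under normexp). The list's median was 0.19, with the endotoxin co-receptor gene Cd14 at 0.70 and the adhesion gene Vcam1 at 0.58. Among 15 complement genes Serping1, the C1 inhibitor, was higher by 1.14 (0.97 under normexp) and C4b by 0.84, with a median of 0.19. The blood and border cell markers above were higher on the same array as these groups and the class II genes, and their part in these values was not tested.

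Neuronal transcripts did not differ as a class. Of 19 pan-neuronal genes 0 were 2-fold apart and the median was -0.01, and the summed signal was 795 and 808. The neurofilament genes were lowest, with Nefh at -0.66, Nefm at -0.40 and Ina at -0.31, and Nefh was also lower with LPS, by 0.46 on the log2 scale. The excitatory cortical and hippocampal list (median -0.05), the interneuron list (-0.01), the striatal list (0.07) and the thalamic list (0.09) had 0 genes 2-fold apart by the probe that stands for the gene. Their most distant members were Wfs1 (0.68) and Camk2a (-0.50, but 0.21 at its second probe), Calb2 (0.50) and Pvalb (-0.45), Syndig1l (0.88, but -1.39 at its second probe) and Scn4b (-0.74), and Ramp3 (0.65). Lhx9 of the thalamic list was well above background in Nav1.8CreROSA26DTA only, at least 2.21-fold higher. Drd2 of the striatal list was above background in wild-type only. Of 34 glutamate and GABA-A receptor genes 0 passed 2-fold, with a median of 0.00 and a range from -0.46 for Grik1 to 0.44 for Grik5. Of 13 measured sodium channel genes 0 passed, with a median of -0.15 (-0.05 under normexp). Of 22 synaptic vesicle genes Sv2c was higher by 2.49 and 0 were lower, with Syt2 at -0.97 and Vamp1 at -0.63. Hypothalamic genes had a median of 0.24 and 3 of 22 past 2-fold. These were Baiap3, an exocytosis regulator (2.03), the synapse organiser Cbln1 (1.81, with levels of -1.40 and 0.42) and the vasopressin gene Avp (1.01, from -5.65). Baiap3 and Avp were at 0.98 and 0.40 under normexp, and Cbln1 was at 1.64. Cbln1 was the only one of 13 measured cerebellum and hindbrain genes past 2-fold (median 0.12), with Car8 of Purkinje cells at -0.71. Dbh, the enzyme that makes noradrenaline, was higher by 1.28 from -5.13 (0.50 under normexp) among 12 monoamine and acetylcholine genes with a median of 0.17. Cdhr1 was lower by 1.01 on the log2 scale (0.31 under normexp) among 14 olfactory bulb genes with a median of 0.04.

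Sensory neuron genes measured on both arrays mostly differed little between the genotypes. Scn10a had levels of -2.20 in wild-type and -2.54 in Nav1.8CreROSA26DTA, a difference of -0.33, against 0.08 at its second probe, and 0.47 with LPS. Of 18 measured nociceptor and sensory neuron genes 1 was at least 2-fold higher and 0 lower, with a median of -0.08 that turned to 0.08 under normexp. The 1 was Prph, the filament gene peripherin, at 1.19 (0.74 at its second probe, and 0.53 under normexp). The others above 0 were Nppb (0.68), the mechanosensitive channel gene Piezo2 (0.36), the ATP receptor gene P2rx3 (0.32), Gal (0.31), Tac1 of substance P (0.31) and Ntrk2 (0.30). At or below 0 were Th (-0.01), Sst (-0.01), Ntrk3 (-0.14), Ret (-0.15), the cold channel gene Trpm8 (-0.20), Gfra2 (-0.20), Scn11a (-0.22), Avil (-0.43), Pou4f1 (-0.62) and Calca of calcitonin gene-related peptide (-0.63). Trpa1 was well above background in Nav1.8CreROSA26DTA only, and Gfra3 and Tmem233 in wild-type only. Scn9a, the capsaicin receptor gene Trpv1, Calcb, Mrgprd, Mrgpra3, Prdm12 and Isl1 were on neither. The central targets of pain signalling were also near 0. Among 32 opioid and pain-modulating peptide genes 0 passed 2-fold, with a median of 0.13, and the highest were Nts (neurotensin, 0.95), the kappa opioid receptor gene Oprk1 (0.85) and the substance P receptor gene Tacr1 (0.75). Oprk1 was higher by 1.25 with LPS.

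Genes that report recent neuronal activity or stress did not separate the 2 brains. Of 25 immediate early genes 0 were 2-fold apart, with 12 above 0 and a median of -0.02. Fosb and Npas4 were lowest, both at -0.60, followed by Egr1 (-0.34), Fosl2 (-0.31), Fos (-0.25), Bdnf (-0.24), Arc (-0.23), Homer1 (-0.21), Ier5 (-0.19), Nr4a1 (-0.13) and Dusp1 (-0.10). Jun (-0.04), Nr4a3 (-0.02), Nptx2 (0.04), Dusp6 (0.06), Egr2 (0.09) and Egr3 (0.10) were closest to 0. Above these were Jund (0.12), Klf4 (0.13), Junb (0.17), Ier2 (0.28), Btg2 (0.28), Ier3 (0.31), Egr4 (0.36) and Nr4a2 (0.46). Of 20 glucocorticoid-responsive genes Plin4, a lipid droplet coat gene, was lower by 1.08 on the log2 scale (0.98 under normexp) and 0 were higher, with a median of 0.06 and Pdk4 at 0.52. Clock genes (median -0.07, 0 of 19, Dbp 0.42 and Per2 -0.41), heat shock genes (-0.03, 0 of 16, Hspa1b -0.55) and hypoxia genes (0.05, 0 of 15, Hk2 0.45) had no member past 2-fold. The same held for 11 kynurenine pathway genes measured on both arrays (-0.00, Qprt 0.57; Aadat, above background in Nav1.8CreROSA26DTA only, was at least 2.37-fold higher), 64 ribosomal protein genes (0.07, or -0.04 with quantile normalization), 53 oxidative phosphorylation genes (0.03) and 16 histone genes (0.16). Of 23 cell cycle genes, Mki67 was higher by 1.52 and Ccnb1 lower by 1.62 on the log2 scale, with a median of 0.29, and neither was past 2-fold under normexp. Of the REG lectin family, secreted antimicrobial proteins, Reg1 differed by -0.13 and Reg3d by 0.18, and Extl3, a proposed receptor of these proteins, by -0.17. Reg2, Reg3a, Reg3b, Reg3g and Reg4 were well above background on neither PBS array. Lists kept for tissue carried over with the brain had few measured members. The pituitary list had 3, with a median of 0.26, the pineal and retina list 6 (0.16) and the muscle and skin list 14 (0.07), with 0 of these measured members past 2-fold. The pituitary hormone genes Gh and Prl, however, were well above background in Nav1.8CreROSA26DTA only, and the muscle gene Mylpf in wild-type only, at least 2.78-fold lower in Nav1.8CreROSA26DTA. Tph1, Pde6b and Gngt1 of the pineal and retina list were also above background in wild-type only. The 8 measured sex-linked genes ranged from -0.44 for Ddx3y to 0.20 for Eif2s3x.

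Genes lower in Nav1.8CreROSA26DTA were fewer, smaller in difference and less often backed by a second probe. Of the 25 lowest, 5 have clone-type names, namely E530001F21Rik (lower by 2.15 on the log2 scale, the lowest of all), Gm765, 4932411N23Rik, Gm35358 and B020031M17Rik. Besides Hmox1 these include Cd5l, a macrophage-secreted protein gene (-3.44 and -5.09), Ccnb1, the homeobox gene Dlx4 (lower by 1.57 on the log2 scale), Ccdc172 (1.61), Mup19 (1.46) and Zfp972 (1.45). Peg3os and Nrg3os, transcripts opposite Peg3 and Nrg3, were lower by 1.71 and 1.38. The others were Il22ra1 and Il5ra, cytokine receptor subunits (1.43 and 1.32), Treml2 (1.41), Vapb (1.37), Pinx1 (1.36), Trpm1 (1.34), the receptor gene Notch1 (1.31), Cyp2e1 (1.30), the retinol transporter gene Stra6 (1.29), Herc6 (1.28) and Bora (1.27). Under normexp Hmox1, Treml2, Vapb, Pinx1, Trpm1, Notch1 and Stra6 stayed past 2-fold. So did the clone-named E530001F21Rik (-1.19), Gm35358 (-1.10) and B020031M17Rik (-1.23), and the other genes named here did not. Of the 69 lower genes 5 had several measured probes, and in 2 of them the probes had the same direction. The other probes of Vapb and Treml2 gave -0.06 and 0.74. Of the 201 higher genes 32 had several probes, and in 30 all had the same direction.

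The LPS pair shares no array with the PBS pair and shows how far a difference recurs in other brains of the same genotypes. Of the 201 higher genes 176 were measured on all 4 arrays. In the LPS pair 131 of these (74.4%) were again higher, where 50.7% of all genes were above 0, and 28 (15.9%) were at least 2-fold higher, where 0.64% of all genes were. Their median was 1.27 with PBS and 0.33 with LPS. Of the 69 lower genes 67 were measured on all 4, and 33 of these (49.3%) were again lower, where 49.3% of all genes were below 0. At least 2-fold lower in both pairs was 1 of the 67, where 0.314% of all genes were at least 2-fold lower with LPS. The lower genes thus had the same share below 0 as all genes, and the higher genes a larger share above 0 than all genes, which is a description without a test. For 132 of the 176 higher genes (75%) the wild-type PBS array was the lowest of the 4, as it was for 25% of all genes, and for 114 (64.8%) the Nav1.8CreROSA26DTA PBS array was the highest, as it was for 34.4% of all genes. For 48 of the 67 lower genes (71.6%) the wild-type PBS array was the highest (23.2% of all genes), and for 57 (85.1%) the Nav1.8CreROSA26DTA PBS array was the lowest (21.8% of all genes). The choice of genes favours these 2 arrays at the extremes.

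**Figure D3:**
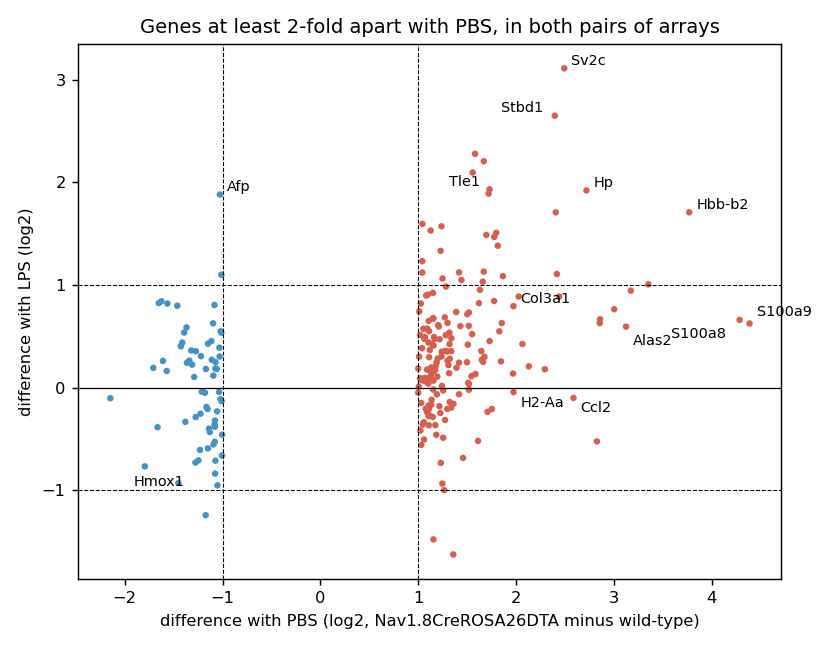
Difference with PBS (horizontal) and with LPS (vertical), Nav1.8CreROSA26DTA minus wild-type on the log2 scale, for the 176 higher (red) and 67 lower (blue) genes measured on all 4 arrays. Dashed lines mark 2-fold. Sv2c, Stbd1 and Hp are past 2-fold in both pairs, whereas S100a8, S100a9 and Alas2 lie below 1 with LPS, and the lower genes spread around 0.

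The set of genes below differed in the same direction in both pairs, and by at least 2-fold with PBS. It was ranked by the smaller of the 2 differences, and in some genes the gap was of like size. Tle1, a transcriptional corepressor gene, had levels of -0.15 and 1.57 with PBS and -0.36 and 1.53 with LPS, higher by 1.72 and 1.89. Stbd1, which tethers glycogen to membranes, had -2.95 and -0.55 with PBS and -2.95 and -0.30 with LPS, and its 2 probes gave 2.12 and 2.40 with PBS. Sv2c, a vesicle glycoprotein gene, was higher by 2.49 and 3.11. In each of these 3 the 2 wild-type arrays were low and the 2 Nav1.8CreROSA26DTA arrays high. The pseudogene Pisd-ps3 was higher by 1.67 and 2.21, Hddc3 by 1.58 and 2.28, and Rnf122, a ubiquitin ligase gene, by 1.56 and 2.10. 9630013A20Rik (1.73 and 1.93), Hp, Hbb-b2 and Dnah6 complete the first 10, the last 3 with smaller gaps with LPS. On the lower side Cthrc1, a secreted collagen-modifying protein gene, was lower by 1.25 with PBS and 0.71 with LPS on the log2 scale, and the homeobox gene Six4 by 1.01 and 0.66. Zfp972, Hmox1, Herc6 and Ccl21a were likewise lower in both pairs, by less than 2-fold with LPS. Of the same set 1500012K07Rik, Gm16291 and Gm33464 have clone-type names.

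**Figure D4:**
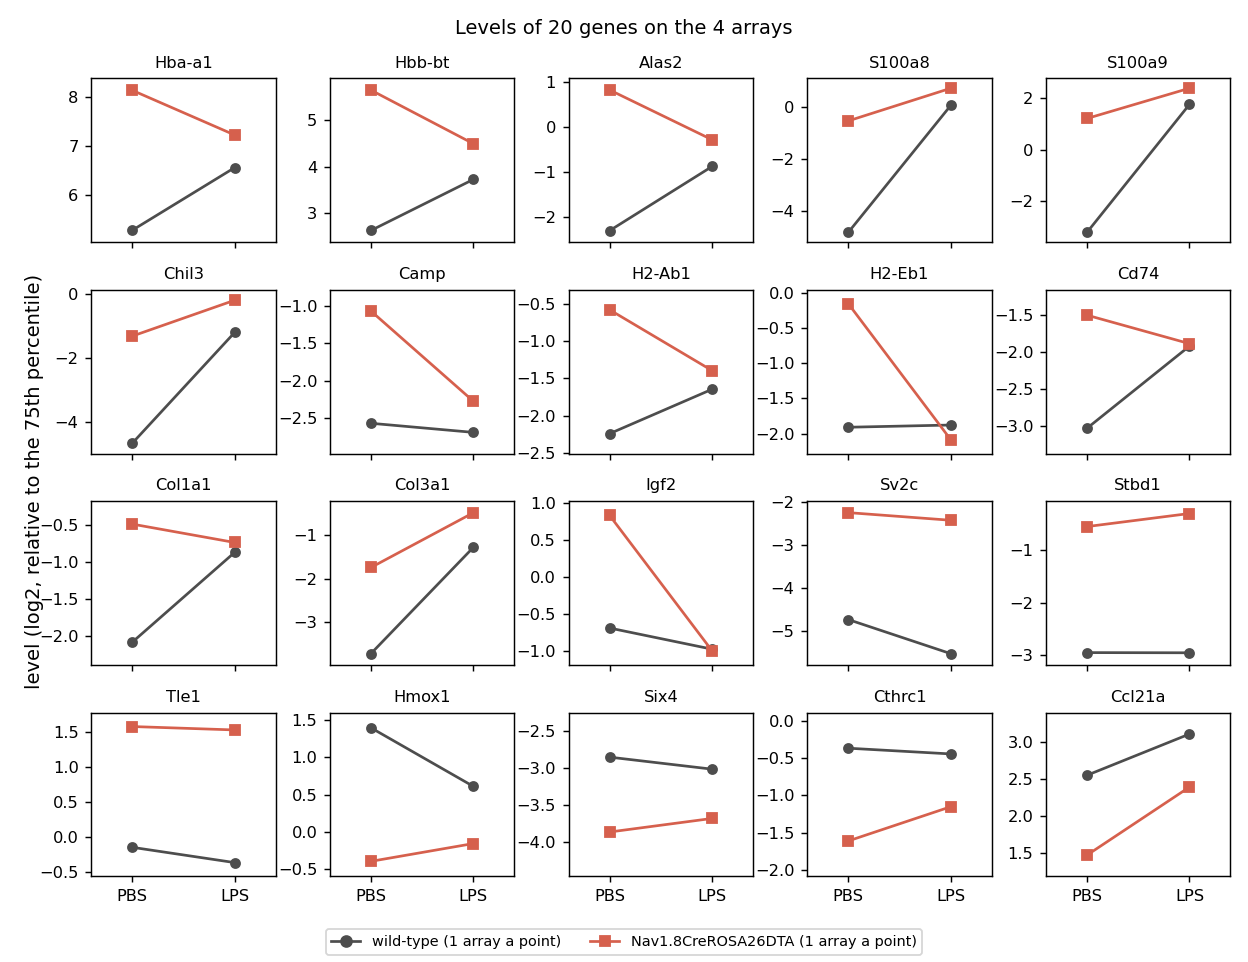
Level of 20 genes on the 4 arrays, log2 relative to the 75th percentile, with wild-type in grey and Nav1.8CreROSA26DTA in red. Each point is 1 array, and the vertical scale differs between panels. Globin and calprotectin genes are lowest on the wild-type PBS array, class II genes differ with PBS but hardly with LPS, and Tle1, Stbd1 and Sv2c keep their gap in both.

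The X-linked genes Xlr3b and Xlr4b, members of 1 imprinted family, were higher together with PBS, by 2.30 and 2.07, at levels of -4.09 and -1.80 and of -3.0 and -0.94. With LPS they differed by 0.18 and 0.42. Probes of this family can share sequence, so which member a value belongs to is uncertain. Stil, a centriole assembly gene, was higher by 2.83 with PBS and -0.52 apart with LPS, its level in Nav1.8CreROSA26DTA PBS (-2.18) standing above the other 3 arrays (-5.01, -4.48 and -5.01). Slc26a7 had levels of -6.13 and -2.81 with PBS, the first close to the lowest level well above background on that array (-6.33). With LPS Slc26a7 was well above background in Nav1.8CreROSA26DTA (-4.79) and not in wild-type.

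A further 281 genes were well above background in Nav1.8CreROSA26DTA with PBS and not in wild-type, 135 of them by at least 2-fold, and 585 were above background in wild-type only, 50 by at least 2-fold. A bound sets the bright level against the higher of the dim array's lowest level well above background (-6.33 in wild-type, -5.95 in Nav1.8CreROSA26DTA) and the dim gene's own level. Gdpd3, a lysophospholipase gene, had a level of -0.85 in Nav1.8CreROSA26DTA and was therefore at least 44.9-fold higher. After LPS it was again well above background in Nav1.8CreROSA26DTA (-1.51) and not in wild-type. The pituitary hormone genes Prl and Gh were at least 16.5-fold and 15.4-fold higher, and both were well above background on the 2 LPS arrays. Chrnb1, a subunit of the muscle acetylcholine receptor, was at least 15.6-fold higher, Saa4, a serum amyloid gene, at least 15.2-fold, and the pancreatic enzyme gene Cpa1 at least 14.8-fold. Chrnb1 and Cpa1 were not well above background on any other array. On the lower side Cpsf4l was at least 9.02-fold lower, Il18r1, a subunit of the interleukin-18 receptor, at least 6.81-fold, Ceacam18 at least 6.47-fold and Acnat2 at least 5.40-fold, with Gm20125 and Olfr75-ps1 beside them. For each of these 6 genes the wild-type PBS array was the only one of the 4 well above background. List counts cover genes measured on both arrays, so they leave out members above background on 1 array only. Examples are Gata3 of the monoamine list (at least 5.11-fold higher), Top2a of the cell cycle list (at least 4.31-fold higher) and Folr2 of the border macrophage list (at least 3.34-fold higher).

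Around the 2 engineered loci no gene was 2-fold apart. Among the 20 annotated genes on each side of Scn10a on chromosome 9, 23 were measured, with a median of 0.04 and a range from -0.52 for Slc22a13b to 0.96 for Mobp. Around Gt(ROSA)26Sor on chromosome 6, 21 were measured, with a median of 0.08 and a range from -0.32 for Setd5 to 0.58 for Rpusd3. Gt(ROSA)26Sor itself, the transcript of the locus that carries the toxin allele, had levels of 1.74 and 1.23, a difference of -0.51, with its 2 probes at -0.51 and -0.45, and -0.52 in the LPS pair. Over the 20 chromosomes with at least 100 measured genes, between 0.390% and 1.72% of genes were higher and between 0% and 1.2% lower, with medians from 0.00064 to 0.067.

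Probes without a gene symbol leaned the other way from named protein-coding ones. Of 11620 such probes measured on both arrays, 75 (0.645%) were at least 2-fold higher and 270 (2.32%) lower, against 269 (1.1%) higher and 95 (0.388%) lower of 24497 named probes. The shift was largest for full-length cDNA clones without a symbol, whose median was -0.22 with PBS and 0.00 with LPS, and smaller for Ensembl transcripts without a symbol (-0.09 and 0.02). The PBS medians of the other unnamed kinds were near 0. They were 0.02 for genomic positions, 0.01 for other accessions and -0.005 for RefSeq accessions without a match. Of these kinds, in that order, 0.563%, 0.530% and 1.06% were at least 2-fold higher and 1.73%, 1.89% and 1.21% lower. Named protein-coding probes had a median of 0.04 with PBS and named lncRNA probes 0.00. Of 1170 named lncRNA probes 7 (0.598%) were at least 2-fold higher and 16 (1.37%) lower. For protein-coding probes the shares were 1.11% and 0.325%. Unnamed probes are dimmer on the whole, and the split was also seen within bins of level, most in the dimmer ones. Below a level of -3, 3.52% of unnamed probes and 0.888% of protein-coding probes were at least 2-fold lower, and between -3 and -1 the shares were 1.89% and 0.191%. Above -1 they were 0.436% and 0.150%, and the medians there, 0.02 for both kinds, did not show the shift. Among probes that the array names by position in the mm9 build, chr9:81537835-81583227 was higher by 2.55, chr9:121845920-121858120 by 2.39 and chr8:94841965-94881130 by 2.29. The lowest were chr12:115365529-115379374 (-1.89), chr12:110845020-110850870 (-1.58) and chr7:66570691-66573827 (-1.51). Which transcripts these probes detect was not examined further.

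**Figure D5:**
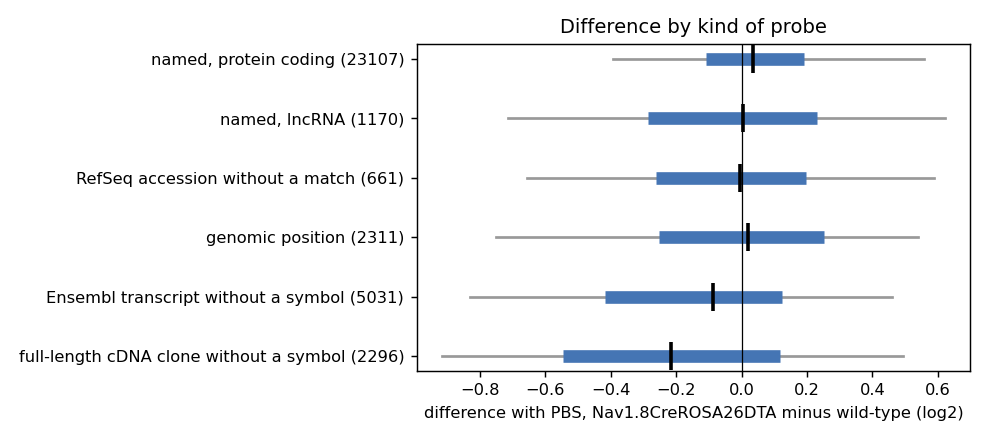
Difference with PBS (Nav1.8CreROSA26DTA minus wild-type, log2) by kind of probe, with the number of measured probes in brackets. Black ticks are medians, blue bars span the middle 50% of probes and grey lines the 5th to 95th percentile. The median is 0.04 for protein-coding probes and -0.22 for cDNA clones without a symbol.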

How the data were processed

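Both PBS arrays and, for comparison, both LPS arrays were read from the scanner files. The values analysed were the deposited processed signals, spot intensities that the scanner software had background-subtracted and detrended array by array, per the file headers. Its version is Agilent Feature Extraction 11.0.1.1 per the submitters' processing notes, but 12.0.3.1 per the file headers. A second deposited set, the value table of linear intensity, holds these signals scaled by a constant per array: 1.82 and 2.09 in the wild-type and Nav1.8CreROSA26DTA PBS columns, and 1.83 and 1.57 in the LPS columns. That held to 0.1% in 59304 or more of the 59305 spots. The basis of these factors is unknown. Its column medians were 97.2, 91.4, 103 and 102 for wild-type PBS, Nav1.8CreROSA26DTA PBS, wild-type LPS and Nav1.8CreROSA26DTA LPS. The same software set the deposited flags (0 or 1) for spots well above background.

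Control spots and outlier spots (81 to 96 an array) were left out. Signals were taken to log2, and each array's 75th percentile (612, 514, 634 and 726 in that order, before log2) was subtracted. Spots of a probe were averaged. Of 56605 probes 33767 (59.7%) had 1 symbol through RefSeq accessions of GRCm38.p6, which served to name and order genes. A gene is its probe well above background on the most PBS arrays, then on the most arrays, then the brightest. Named are the 25 largest differences and 6 largest bounds each way (clone-type names such as Gm and Rik are listed without description), up to 4 members of each of 49 lists (all members of 6 lists), 10 genes each way that recur with LPS, the engineered loci and 3 unnamed probes each way. The members, lists and rules were chosen with earlier results of these data known. MHC and collagen subsets and members near 0 were chosen after their values were seen. Python 3.11.15, pandas 2.3.3, R 4.3.3 and limma 3.58.1 (normexp, quantile and cyclic loess only) were used, and the scripts were tested on simulated data. The 1 array a group limits the precision of every value. Some genes are not reported here.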

Additional observations from a re-analysis of the deposited data

Results flagged for a closer look

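In 4 genes the genotypes differed by at least 2-fold in opposite directions in the 2 pairs of arrays, and this difference was not tested, since each pair has 1 array a side. Ccl12, a monocyte chemokine gene, was 1.16 higher in Nav1.8CreROSA26DTA with PBS and differed by -1.48 with LPS. Bfsp2, a lens filament gene, differed by 1.36 with PBS and -1.63 with LPS, and its 2 probes gave 1.36 and 1.45 with PBS. Afp, the alpha-fetoprotein gene, differed by -1.03 with PBS and 1.88 with LPS, on levels between -5.55 and -3.57. The clone-named gene 4831407H17Rik differed by -1.01 and 1.1.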

How the results depend on the processing

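Without the filter on dim probes 956 genes were higher and 523 lower, and at a threshold of 1.5-fold 815 and 350. With normexp 52 were higher and 21 lower (19 of the 69). Scaling to the median (222 and 59), quantile normalization (213 and 64), cyclic loess (215 and 63), the deposited table (181 and 84) and the median of a gene's probes (197 and 66) moved both counts by less than 1.5 times. Normexp used median spot signals, an alternative chosen after seeing the data. The planned normexp on mean signals was not run. Under normexp list medians were 0.31 for platelet, 0.34 for lymphocyte, 0.41 for choroid plexus, 0.57 for fibroblast, 0.64 for border macrophage, 0.30 for type I interferon, 0.34 for chemokine, 0.14 for kynurenine, -0.0497 for sodium channel and 0.0830 for nociceptor genes, the last a change of sign. Without the filter they were 0.999 for neutrophil and monocyte, 0.72 for choroid plexus, 0.34 for cerebellum and hindbrain, 0.38 for pituitary, 0.40 for chemokine and 0.20 for REG genes (a change of sign). Over genes measured on all 4 arrays red cell was 0.89, platelet 0.54 and lymphocyte 0.48. With the median of a gene's probes red cell was 0.71, cerebellum and hindbrain 0.25 and chemokine 0.43. With quantile normalization pan-neuronal was -0.12 and ribosomal -0.0369. The causes were not tested. Medians within 0.1 of 0 also changed sign under at least 1 scaling for some lists, among them the interneuron, receptor, immediate early and oxidative phosphorylation lists. Of 106 named genes past 2-fold, 45 remained so with normexp, 100 with the deposited table, 103 with quantile normalization and 102 with cyclic loess, and 0 of 243 named genes reversed past 2-fold. Dim signals limit most of the higher genes. No array can be left out, since each group has 1. No paired analysis was possible because the labels carry no replicate numbers and each group has 1 array.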
